A study of Mus musculus with 4 samples.

Results

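Cluster 7 held 125 of the 3002 cells in a single-cell RNA dataset of atherosclerotic mouse aorta, and its leading transcripts were those of neutrophils, S100a8 and S100a9 first. Its members are the cells to which the authors' deposited metadata give cluster number 7, of 14 clusters. The mice were Apoe-/- and had eaten a western diet for 13 weeks; live CD45+ leukocytes were sorted from the aorta and sequenced from the 3' end of their transcripts in droplets. Apoe-/- mice lack apolipoprotein E, a ligand that clears lipoprotein remnants, and develop plaques. All samples form 1 group: there was no control diet, no other genotype and no other time, so every comparison here is between cell clusters of the same mice. The series text names 6 mice, and the titles name 2 biological replicates with 2 libraries each (1-1, 1-2, 2-1 and 2-2), without saying whether the libraries of a replicate came from different animals. The authors kept clusters that carried macrophage or dendritic cell markers before they deposited the cells, so the share of cluster 7 is a share of those myeloid cells and not of aortic leukocytes.

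Neutrophils are short-lived granulocytes that leave the bone marrow with their granule proteins already made, enter tissue along gradients of chemokines and lipid mediators, and kill microbes with granule proteases, oxidants and extracellular traps. The granulocyte colony-stimulating factor receptor Csf3r drives their production, and the chemokine receptor Cxcr2 draws them out of the marrow and into tissue. In plaques they are known as a small population that can damage endothelium and draw in monocytes. They hold little RNA, which limits what droplet sequencing sees of them.

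Cluster 7 made up 5.08% of the cells in library 1-1 (12 of 236, exact 95% binomial interval 2.65% to 8.71%), 5.93% in library 1-2 (73 of 1231, 4.68% to 7.40%), 2.36% in library 2-1 (13 of 550, 1.26% to 4.01%) and 2.74% in library 2-2 (27 of 985, 1.81% to 3.96%). Both libraries of replicate 1 lay above both libraries of replicate 2. The mean over libraries was 4.03% ± 1.75 (SD, n = 4). The median cell of cluster 7 held 1601 UMIs (unique molecular identifiers, which mark single captured transcripts; range 517 to 9095) and 725 genes, against 4512.5 UMIs in the median cell of the series. The cluster held 297634 UMIs in all, 208245 in replicate 1 and 89389 in replicate 2, so that 1 UMI is worth 4.80 CPM (counts scaled to a total of 1e+06) in replicate 1 and 11.2 CPM in replicate 2. Its median mitochondrial percent, 1.69%, was the lowest of the 14 clusters, and no cell barcode was shared between libraries (0 of 3002). Intervals cover counting error only.

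Marker genes were set beside the label. They describe the cluster and do not test the label, since the cluster was drawn from these same counts. S100a8, S100a9, Csf3r and Cxcr2 are also the genes by which it was labelled. Of 10 neutrophil markers, 9 were measured. By the rule given below, all 9 were higher in cluster 7 than in the mean of the other clusters. A marker nearly absent elsewhere counted as measured through cluster 7 alone. The exception, Ly6g, the usual antibody marker of mouse neutrophils, had 1 UMI. Cluster 7 held 93.9% of all S100a8 and S100a9 UMIs of the table, and 1 of its 125 cells had no UMI of any of the 10 markers. Of 8 dendritic markers, Flt3, Zbtb46, Cd209a and Xcr1 were at 0 UMIs, as were all 6 T and NK cell markers of the table. The other 4 dendritic markers held 1489 UMIs, all but 17 of them of H2-Ab1 and H2-Eb1; they made up 0.540% and 0.408% of UMIs in replicates 1 and 2 of cluster 7, and 0.0521% and 0.0209% without the cells of high C1q described next. B cell, mast cell and endothelial lists had 2 UMIs each. The fibroblast and smooth muscle list had 60 UMIs, with 1 of 6 measured genes higher (Acta2, 15 UMIs) and 5 lower. Of 7 measured monocyte markers, Ly6c2 was higher and 4 were lower.

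Macrophage transcripts were present, and they came from a minority of the cells. UMIs of the complement genes C1qa, C1qb and C1qc, which macrophages make, reached 5 or more in 25 of the 125 cells, and 22 of these 25 held more than 3000 UMIs, against 4 of the other 100. The 25 cells were 1 of library 1-1, 17 of library 1-2, 0 of library 2-1 and 7 of library 2-2. They held a median of 5396 UMIs, against 1474.5 in the other 100 cells, and supplied 43.9% of the UMIs of the cluster. Raw neutrophil marker UMIs had a median of 24 (6 to 248) per C1q cell and 22 (0 to 1142) per other cell. As a share of all UMIs, these markers were at 0.804% in the C1q cells and 3.78% in the rest. Macrophage marker UMIs had a median of 90 (8 to 158) in the C1q cells and 0 (0 to 8) in the rest. Their shares of all UMIs were 1.48% and 0.0527%. The lowest count among the 25 was 6 neutrophil marker UMIs. That count was reached by 42 of 1566 cells (2.68%) of the macrophage clusters 0, 1, 2 and 13. The bound of 6 was taken from the 25 cells themselves, and the clusters were drawn from these same counts. The 2 groups are therefore described here and not tested.

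As a group, the C1q cells carried transcripts of both cell types. All 25 had a UMI of the 10 neutrophil markers, and 22 had a UMI of S100a8 or S100a9. Some of the markers also occur in macrophages: unthinned, 19.7% of cells of the macrophage clusters had Csf3r and 23.1% had Clec4d. Whether each of the 25 cells holds neutrophil RNA was not tested. Cd74, the invariant chain of MHC class II, was at 12296 CPM in the C1q cells and 455 CPM in the rest, and C1qa was at 4423 CPM in the C1q cells and 150 CPM in the rest. The heat shock gene Hspa1a, whose reads the near-identical Hspa1b can share, was at 2227 CPM in the C1q cells and 11.98 CPM in the rest, and the immediate-early factor Jun at 4315 CPM in the C1q cells and 479 CPM in the rest. S100a9 ran the other way, at 3520 CPM in the C1q cells and 19486 CPM in the rest, as did Cxcl2 at 21233 CPM in the C1q cells and 35282 CPM in the rest. The bound of 5 is a range on a score and was set after the counts were seen; 20 cells lay at 1 to 4 C1q UMIs and 2 cells at 5 to 9. No doublet caller was run, the sources used here do not give the authors' treatment of doublets, and the part of doublets or of uptake in these cells was not tested. The counts of called genes are therefore given with and without them.

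**Figure D1:**
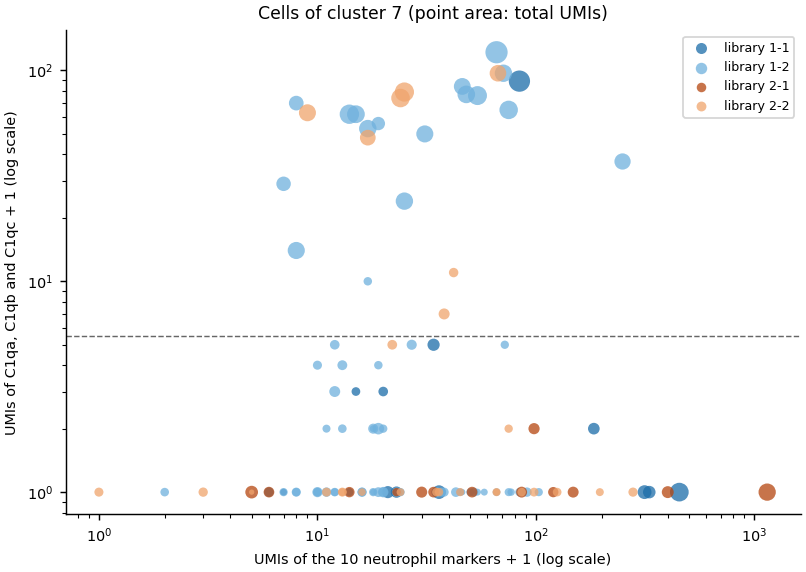
Each point is a cell of cluster 7, with the UMIs of the 10 neutrophil markers on the x axis and those of C1qa, C1qb and C1qc on the y axis (both plus 1, log scales); colour gives the library and point area the total UMIs. The 25 cells above the dashed line have 5 or more C1q UMIs, and most of the large points are among them.

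Levels were compared on counts summed, within each biological replicate, over a cluster. A gene is called higher or lower where the log2 difference of CPM + 10 was at least 1 (2-fold) in the same direction in both replicates, among genes whose higher side reached 50 CPM. The clusters were drawn from these same counts, so these calls describe the cluster and carry no test. Against the unweighted mean of the other 13 clusters, 412 of 3260 measured genes (12.6%) were higher and 402 (12.3%) were lower in cluster 7. The median log2 difference over all measured genes was -0.05. Without the 25 C1q cells, 540 of 3343 genes (16.2%) were higher and 743 (22.2%) were lower; 387 of the 412 and 383 of the 402 were called in both settings.

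S100a9 and S100a8, the subunits of the calcium- and zinc-binding protein calprotectin, stood furthest from the other clusters. They are neighbours on chromosome 3 (GRCm38, S100a8 at chr3:90668978-90670035 and S100a9 at chr3:90692632-90695721). S100a9 was at 19419, 5646, 37827 and 13923 CPM in libraries 1-1, 1-2, 2-1 and 2-2 of cluster 7, against a mean of 10.2 CPM in the other clusters (log2 difference 9.45 ± 1.62, SD, n = 2 replicates). S100a8 was at 12330, 2693, 16054 and 4901 CPM in the same libraries, against 6.08 CPM (8.67 ± 1.24). For both genes the library with the fewest cells of its replicate was the higher, and library 2-1 the highest of all. A single cell, described with the granule genes, supplied 686 of the 1197 S100a9 UMIs and 229 of the 508 S100a8 UMIs of library 2-1. Of the next highest clusters, cluster 6 had 51.8 CPM of S100a9 and 35.7 CPM of S100a8.

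The receptor genes were lower in level. Csf3r was at 796, 602, 1201 and 797 CPM in libraries 1-1, 1-2, 2-1 and 2-2 of cluster 7, against 26.4 CPM in the other clusters (4.43 ± 0.37). Cxcr2 was at 205, 118, 474 and 260 CPM in cluster 7, against 0.425 CPM elsewhere (4.42 ± 0.94), where the pseudocount of 10 CPM sets much of the difference. Every library of cluster 7 lay above the highest other cluster for both genes; Csf3r came next in cluster 5, at 71.3 CPM.

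All 15 measured members of a 16-gene neutrophil identity list were higher in cluster 7, with a median log2 difference of 4.43. Members nearly absent elsewhere counted as measured through cluster 7 alone, so this count describes the cluster and is no test. Its genes took up 2.31% (replicate 1) and 4.80% (replicate 2) of all UMIs in cluster 7, and at most 0.0953% in any other cluster. G0s2, an inhibitor of the triglyceride lipase Atgl, was at 5368, 2032, 5846 and 3134 CPM in the 4 libraries of cluster 7, against 12 CPM in the others (7.24 ± 0.60). Hdc, which makes histamine, was at 1901, 1400, 1738 and 952 CPM, against 10.7 CPM (6.06 ± 0.46). The interleukin 1 decoy receptor Il1r2 averaged 1302 CPM in cluster 7 and 63.3 CPM in the others, and Mxd1, a Max partner that opposes Myc, 1394 CPM in cluster 7 and 104 CPM in the others. Retnlg (resistin-like gamma) was higher too, but 58.1% of its UMIs lay in 1 cell.

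Genes outside the identity list were among the 20 that led the cluster. Irg1, the older symbol of Acod1, which makes itaconate in activated myeloid cells, was at 2415, 1872, 3065 and 2061 CPM in cluster 7, against 8.97 CPM in the others (6.89 ± 0.63). Hcar2, the receptor for niacin and the ketone body beta-hydroxybutyrate, averaged 1231 CPM in cluster 7 and 22.5 CPM in the others. Csf1, the growth factor of macrophages, was at 514, 626, 790 and 675 CPM in the libraries of cluster 7, against 12.6 CPM in the others (4.90 ± 0.48), and its next highest level was 79.1 CPM in cluster 9. The cystine transporter Slc7a11 averaged 1086 CPM in cluster 7 and 47.1 CPM in the others. The remaining leaders were the lectin receptor Clec4e (Mincle), the sphingomyelin synthase Sgms2, the Schlafen gene Slfn4, the protease gene Asprv1, the noncoding RNA Mirt1 and the genes described below.

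**Figure D2:**
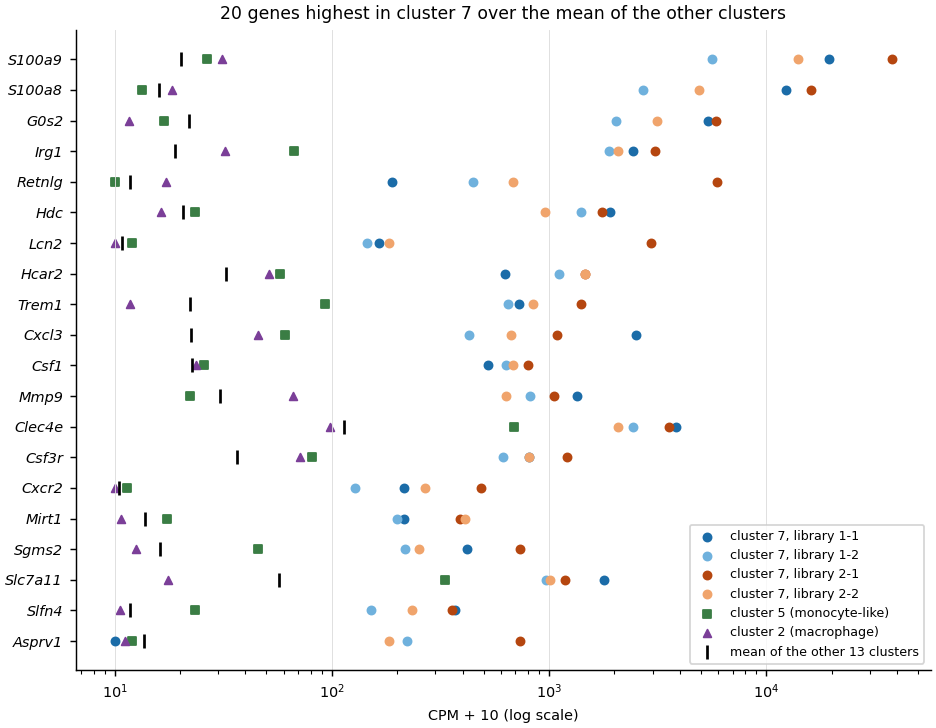
Level of the 20 genes with the largest difference from the mean of the other clusters (CPM + 10, log scale). Circles are the 4 libraries of cluster 7, squares and triangles the replicate means of clusters 5 and 2, and bars the mean of the other 13 clusters; for S100a9 the libraries lie between 5646 and 37827 CPM, and for Asprv1 library 1-1 is at 0.

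Granule genes differed by granule type. Primary granules are filled in promyelocytes, secondary granules in myelocytes, and gelatinase granules late. Of the primary granule genes, Mpo (myeloperoxidase), Elane (elastase), Ctsg and Bpi had 0 UMIs among the 297634 of the cluster, which allows up to 10.1 CPM, and Prtn3 had 2 UMIs, both in 1 cell. Of the 7 measured secondary granule genes, 2 were higher, Lcn2 and Ltf, and none was lower. Over all measured genes 12.6% were higher and 12.3% lower, so this count is not read as a trait of the list. Of the 5 measured genes of gelatinase granules and membrane, 4 were higher. Mmp9 (gelatinase B) was at 1336, 809, 1043 and 623 CPM in cluster 7, against 20.6 CPM in the others (4.79 ± 0.30). Slpi, an inhibitor of elastase, averaged 771 CPM in cluster 7 and 52.6 CPM in the others, with cluster 5 next at 403 CPM. The arginase gene Arg2 was at 293 and 369 CPM in replicates 1 and 2 of cluster 7 and 10.6 CPM in the others.

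Transcripts of Camp, Ngp, Ltf and Lcn2 came mostly from a single cell. This cell of library 2-1 held 5493 UMIs, 1527 genes and 0 C1q UMIs. It carried all 77 Camp UMIs of the cluster (cathelicidin), 116 of 117 of Ngp, 49 of 56 of Ltf (lactoferrin), 91 of 132 of Lcn2 and 179 of 308 of Retnlg, together with 686 of the 3713 S100a9 UMIs. It held 7 of the 8665 Cxcl2 UMIs of the cluster, 5 of the 3331 of Il1b and 0 of the 1863 of Ccl3. Without it, replicate 2 of cluster 7 had 572 CPM of Retnlg in place of 2539, 143 CPM of Lcn2 in place of 1152, 11.9 CPM of Ltf in place of 559, and 15674 CPM of S100a9 in place of 22385. Ltf was also not called without the C1q cells. Csf3r stood at 977 CPM without the cell and 940 CPM with it.

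Of the NADPH oxidase genes, which make superoxide, 2 of 7 were higher and none was lower. Over all measured genes 12.6% were higher and 12.3% lower, and with 7 genes this count is not read as a trait of the list. The cytosolic subunit Ncf1 was at 899, 502, 1232 and 658 CPM in cluster 7, against 127 CPM in the others (2.40 ± 0.77), and the GTPase Rac2 averaged 449 CPM in cluster 7 and 202 CPM in the others. The membrane subunits Cybb and Cyba were not called, at 381 and 1115 CPM in cluster 7 and 425 and 1461 CPM in the others; without the C1q cells Cybb was lower (-1.81).

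Of the receptors for chemoattractants, 8 of 9 measured members were higher and none was lower (6 of 9 under TMM scaling). Ccrl2, an atypical receptor that binds chemerin, was at 3596, 3166, 5467 and 4000 CPM in the libraries of cluster 7, against 387 CPM in the others (3.27 ± 0.39), and its next highest level was 876 CPM in cluster 1. Ccr1, a receptor for Ccl3, was at 1387, 756, 1011 and 866 CPM in cluster 7, against 62.4 CPM (3.65 ± 0.20). The receptor of platelet-activating factor Ptafr averaged 717 CPM in cluster 7 and 128 CPM in the others, and the formyl peptide receptor Fpr1 50.4 CPM in cluster 7 and 1.56 CPM in the others. Cxcr4, which holds neutrophils in the marrow and rises on aged ones, was at 334, 526, 1169 and 693 CPM in cluster 7, against 161 CPM (1.95 ± 0.63). The complement receptor C5ar1 was higher as well (log2 difference 1.57), but against cluster 2 it was level with it, at 376 CPM in cluster 7 and 341 CPM there.

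Of the adhesion genes, 4 of 7 measured were higher and none was lower. The hyaluronan receptor Cd44 averaged 1437 CPM in cluster 7 and 277 CPM in the others, and Icam1 352 CPM in cluster 7 and 108 CPM in the others. The beta-2 integrin chain Itgb2 was not called, at 267 CPM in cluster 7 and 162 CPM in the others. On a list of genes used to follow neutrophil ageing, 5 of 6 measured were higher, among them Cxcr2, which falls with age, and Cxcr4 and Icam1, which rise.

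The most abundant cytokine transcript of cluster 7 was Cxcl2, a ligand of Cxcr2. It was at 31774, 28108, 32392 and 28470 CPM in libraries 1-1, 1-2, 2-1 and 2-2, against 6095 CPM in the other clusters (2.27 ± 0.03), and was above Malat1, a nuclear noncoding RNA, in each library of cluster 7. Cluster 2, the inflammatory macrophages, came closest with 21050 CPM. Ccl3, a ligand of Ccr1, was at 8502, 6266, 6731 and 4468 CPM in cluster 7, against 768 CPM (2.94 ± 0.35) in the others and 2468 CPM in cluster 2. Ccl4 was at 4860 and 4307 CPM in replicates 1 and 2 of cluster 7 and 4674 CPM in cluster 2. Cxcl3 was at 2492, 419, 1074 and 658 CPM in cluster 7, against 12.4 CPM in the others (5.19 ± 0.08).

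Of 8 chemokine ligands, 4 were higher in cluster 7 than in the mean of the others and none was lower (3 under TMM scaling). The list held 4.27% and 4.14% of the UMIs of replicates 1 and 2 of cluster 7, and 3.05% in the next highest, cluster 2. Cxcl1 was not called, at 514, 478, 0 and 433 CPM in the libraries of cluster 7 and 179 CPM in the others. Ccl6 was at 655 CPM in cluster 7 and 754 CPM in the others. Without the C1q cells, Cxcl2 stood at 37399 and 31247 CPM in replicates 1 and 2 of cluster 7, and Ccl3 at 10000 and 5571 CPM.

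Promoter letters are shown for 4 chemokine and feedback genes and 2 identity genes, because NF-kappaB and C/EBP factors are the textbook regulators of these groups; the genes were chosen after their matches were seen. The RefSeq promoter table (GRCm38.p6) was searched over 250 bases before the start on both strands for a kappaB pattern (GGG, any 2 bases, TTTCC) and a C/EBP pattern, TTGCNNAA. The kappaB pattern occurred in 447 of 27025 promoters (1.65%), in 3 of the 6 chemokine ligands with a sequence, in 2 of 14 NF-kappaB feedback genes, in 2 of 13 interleukin 1 and TNF family genes and in 0 of 14 identity genes. The C/EBP pattern occurred in 2930 of 27025 (10.8%), in 3 of 14 identity genes and in 0 of 6 chemokine ligands. Cxcl1, Cxcl2 and Cxcl3 are neighbouring paralogs on chromosome 5 and not independent. A match is a description of letters and shows no binding. In the stretches below, 5′ to 3′ on the strand of the gene, capitals mark the kappaB pattern in Cxcl2 (chr5:90903779-90903858, plus strand, 97 and 78 bases before the start), Cxcl3 (chr5:90785981-90786060, plus strand, 73 bases before), Cxcl1 (chr5:90891125-90891204, plus strand, 89 and 71 bases before) and Nfkbia (chr12:55492648-55492727, minus strand, 29 bases before), and the C/EBP pattern in S100a9 (chr3:90695892-90695971, minus strand, 236 bases before) and Retnlg (chr16:48872358-48872437, plus strand, 246 bases before).
Cxcl2: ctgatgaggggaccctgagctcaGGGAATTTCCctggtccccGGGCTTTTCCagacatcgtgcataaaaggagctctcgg
Cxcl3: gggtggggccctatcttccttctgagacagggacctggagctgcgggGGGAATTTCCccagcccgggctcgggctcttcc
Cxcl1: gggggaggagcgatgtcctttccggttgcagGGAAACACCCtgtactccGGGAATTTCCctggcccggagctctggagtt
Nfkbia: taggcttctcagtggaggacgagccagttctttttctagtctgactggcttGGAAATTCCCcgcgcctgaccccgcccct
S100a9: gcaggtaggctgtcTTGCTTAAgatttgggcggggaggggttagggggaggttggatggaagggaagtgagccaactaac
Retnlg: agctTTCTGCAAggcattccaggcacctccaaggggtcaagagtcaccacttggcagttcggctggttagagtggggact

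Genes of the interleukin 1 and TNF family were higher in 10 of 12 measured cases and lower in 1. Il1b was at 14770, 10424, 12988 and 10044 CPM in the libraries of cluster 7, against 2061 CPM in the others (2.44 ± 0.15), and cluster 5 came next with 6212 CPM. Il1a was at 485 and 716 CPM in replicates 1 and 2 of cluster 7, against 25.2 CPM (4.11 ± 0.76). The receptor antagonist Il1rn was at 2594, 1211, 1454 and 779 CPM, against 140 CPM (3.05 ± 0.17). Transcripts of both ligands, the antagonist and the decoy receptor Il1r2 were therefore all called higher. Tnf was at 1284, 1925, 1612 and 1714 CPM in cluster 7, against 227 CPM (2.89 ± 0.22), with cluster 2 next at 723 CPM. The inflammasome sensor Nlrp3 averaged 1394 CPM in cluster 7 and 190 CPM in the others, while its adaptor Pycard was the member that was lower, at 67.2 and 22.4 CPM in cluster 7 and 172 CPM in the others, and Casp1, which cuts the Il1b precursor, had 4 UMIs in all and was not called.

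The feedback genes of NF-kappaB, the factor that drives many of these transcripts, were higher in 9 of 15 cases and lower in none, with a median log2 difference of 1.45. Nfkbia, the inhibitor IkappaBalpha, was at 7038, 7649, 10966 and 8676 CPM in cluster 7, against 1872 CPM in the others (2.17 ± 0.27). Tnfaip3, the ubiquitin editor A20, was at 1002, 1382, 1612 and 1230 CPM, against 354 CPM (1.90 ± 0.27), and Tnfaip2 averaged 1168 CPM in cluster 7 and 70.8 CPM in the others. The mRNA decay factor Zfp36 was not called, at 3245 CPM in cluster 7 and 2488 CPM in the others.

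Survival genes were higher in 8 of 11 cases and lower in none. Mcl1, the Bcl2 relative on which neutrophil survival depends, was at 2826, 3130, 5151 and 2736 CPM in cluster 7, against 1101 CPM in the others (1.59 ± 0.22). Bcl2a1b averaged 1744 CPM in cluster 7 and 474 CPM in the others; its copies Bcl2a1a and Bcl2a1d are near-identical, so the split of reads among them is uncertain. The death-promoting Bcl2l11 (Bim) was also higher, at 453 CPM in cluster 7 and 91.6 CPM in the others.

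Pattern recognition and Fc receptors split by type. The C-type lectins Clec4e, Clec4d and Clec4n and the Trem receptors Trem1 and Trem3 were among the 7 of 15 that were higher, and none was lower. Clec4e was at 3827, 2422, 3539 and 2078 CPM in cluster 7, against 104 CPM in the others (4.58 ± 0.47), and Trem1 at 719, 638, 1390 and 831 CPM, against 12.3 CPM (5.22 ± 0.64). Cd14, the lipopolysaccharide co-receptor, averaged 3974 CPM in cluster 7 and 1558 CPM in the others. Tlr2, Fcer1g and Fcgr3 were not called, and Fcer1g stood at 2173 CPM in cluster 7 and 1832 CPM in the others.

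Enzymes of lipid mediators were called higher in 2 of 6 cases, where 12.6% of all measured genes were. Ptgs2 (cyclooxygenase-2) was at 2132, 1760, 1770 and 1541 CPM in cluster 7, against 205 CPM in the others (3.03 ± 0.23). Its relative Ptgs1, the other gene called, rested on 39 UMIs, none of them in library 2-1, and without library 2-2 its log2 difference was -0.13. The leukotriene genes Alox5 and Alox5ap were not called, and Alox5ap was at 1090 CPM in cluster 7 and 626 CPM in the others. Of 12 hypoxia and glycolysis genes, 2 were higher, a share near the 12.6% of all measured genes: the lipid droplet gene Hilpda (988 CPM in cluster 7 and 132 CPM in the others) and the glucose transporter Slc2a3.

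Interferon-stimulated genes were higher in 6 of 13 cases and lower in none, with 7 not called. Rsad2 (viperin) was at 128, 189, 316 and 346 CPM in cluster 7, against 27.6 CPM in the others, and Ifitm1 at 514, 354, 1106 and 398 CPM, against 143 CPM. Cluster 4 had more Ifitm1 than cluster 7, at 1226 CPM against a mean of 517 CPM. Ifit3 was not called, with a log2 difference of 0.37, nor was Ifitm3, at 795 CPM in cluster 7 and 1558 CPM in the others; without the C1q cells Ifitm3 was lower (-1.43). Of the transcription factors, Cebpb, which sustains granulopoiesis under stress, was at 3673, 2368, 6036 and 3412 CPM in cluster 7, against 816 CPM (2.03 ± 0.40). Clusters 2 and 5 came next for Cebpb, at 2209 and 1878 CPM. Klf2 and Fosl2 were also among the 3 of 15 that were higher. Irf8 and Klf4, which favour monocytes over granulocytes, were the 2 that were lower; both counts are near the shares of all measured genes (12.6% higher and 12.3% lower). Irf8 and Klf4 were at 84.8 and 211 CPM in cluster 7 and 337 and 551 CPM in the others; without the C1q cells 5 of 15 were lower.

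Without the C1q cells, several list counts changed. Over all measured genes, 16.2% were then higher and 22.2% lower, against 12.6% and 12.3% in the full cluster. A count near these shares, such as those for hypoxia or actin, is no trait of its list. Higher and lower genes then numbered 3 and 1 of 7 for NADPH oxidase, 9 and 1 of 10 for chemoattractant receptors, 4 and 1 of 8 for chemokine ligands, 7 and 1 of 14 for interferon-stimulated genes, 9 and 0 of 11 for survival, 7 and 1 of 15 for pattern recognition and 3 and 0 of 12 for hypoxia. They numbered 2 and 1 of 7 for secondary granules, 4 and 2 of 9 for the Siglecf-type list, 3 and 5 of 15 for lineage transcription factors, 3 and 1 of 17 for actin and motility, 0 and 4 of 12 for dissociation stress, 4 and 1 of 6 for checkpoint and arginine genes, 0 and 10 of 12 for C1q and macrophage genes, and 0 and 73 of 80 for ribosomal proteins. Of the macrophage markers 9 of 9 were then lower, and of the monocyte markers 2 of 7 were higher and 4 lower. The identity, gelatinase granule, adhesion, interleukin 1 and TNF, and NF-kappaB feedback lists had the same counts in both settings, though Ier3 was not called without the C1q cells.

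**Figure D3:**
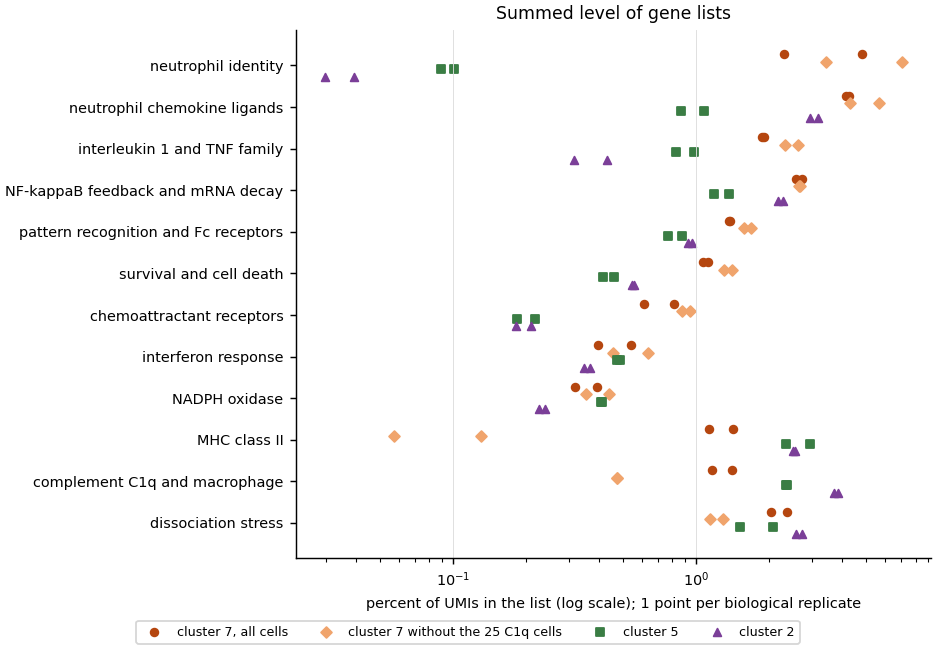
Percent of UMIs in 12 gene lists (log scale), with 1 point per biological replicate: cluster 7 with all cells, cluster 7 without the 25 C1q cells, monocyte-like cluster 5 and macrophage cluster 2. Identity, chemokine, interleukin 1 and survival lists are highest in cluster 7 in both settings, and MHC class II falls to between 0.0574% and 0.131% when the C1q cells are left out.

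The 10 lowest named genes were Retnla, Fn1, Fabp5, Ccr7, Lyz1, Dcn, S100a4, Tmsb10, Mgp and Lpl. Fabp5, a fatty acid binding protein, was at 25.7, 106, 63.2 and 69.3 CPM in cluster 7, against 1952 CPM in the others (-4.47 ± 0.22). Tmsb10, an actin-sequestering thymosin, was at 77.1, 41.3, 63.2 and 121 CPM in cluster 7, against 815 CPM (-3.36 ± 0.55), while its relative Tmsb4x was not called, at 14309 CPM in cluster 7 and 24570 CPM in the others. Retnla, Fn1, Ccr7 and Lyz1 had 3, 2, 3 and 1 UMIs in the whole cluster. A mean over clusters can rest on few of them: Retnla reached 7889 CPM in cluster 13. Fabp5 reached 13969 CPM in cluster 8 and 8805 CPM in cluster 12. In clusters 0, 2 and 11 Fabp5 was below its level in cluster 7, at 32.7, 70.0 and 11.4 CPM. Tmsb10 averaged 74.4 CPM in cluster 7, 74.9 CPM in cluster 0 and 59.6 CPM in cluster 2. The matrix gene Dcn was at 74.4 CPM in cluster 7, at 12033 CPM in cluster 9 and between 39.9 and 154 CPM in all remaining clusters. For Mgp, likewise, cluster 7 had 88.0 CPM and the clusters other than 9 had 47.1 to 373 CPM.

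MHC class II genes were lower in all 6 measured cases (median -1.42), and without the C1q cells in the same number with a median of -4.94. Cd74 was at 642, 7294, 158 and 7239 CPM in libraries 1-1, 1-2, 2-1 and 2-2 of cluster 7, against 13030 CPM in the others. The 2 high libraries are those with 17 and 7 C1q cells. Without those cells Cd74 stood at 594 and 191 CPM in replicates 1 and 2 of cluster 7. Of 12 C1q and macrophage genes, 3 were lower in the full cluster and 10 without the C1q cells. Lyz2, the lysozyme gene of macrophages and neutrophils, was at 3683 and 3826 CPM in replicates 1 and 2 of cluster 7 and 10120 CPM in the others (-1.43 ± 0.16), and at 913 and 2002 CPM without the C1q cells; its reads can be shared with Lyz1.

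The 12 genes of a dissociation stress list were called in no direction in the full cluster, and 4 were lower without the C1q cells. Their UMIs made up 2.03% and 2.36% of replicates 1 and 2 of cluster 7, against a median of 2.14% over the other clusters, and 1.14% and 1.29% without the C1q cells.

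Ribosomal protein genes were lower as a class: 61 of 80 measured were lower and none was higher, with a median log2 difference of -1.42, against -0.05 over all measured genes. They made up 6.49% and 5.45% of the UMIs in replicates 1 and 2 of cluster 7, and between 10.9% and 22.0% in the other clusters. With every cell thinned to 500 UMIs, the median cell of cluster 7 had 4.2% (4.8% in replicate 1 and 3.5% in replicate 2), and the medians of the other clusters ran from 10.4% to 22.4%. In each replicate the median of cluster 7 lay below the medians of all other clusters. The spread of single cells was not compared. Clusters 3, 8 and 10, whose median cells held fewer UMIs than those of cluster 7, were at 22.4%, 17.2% and 14%, so at equal UMIs the low share was not seen in other shallow clusters. At this depth the median cell of cluster 7 showed 307 genes, within the range of the other clusters (264 to 353).

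**Figure D4:**
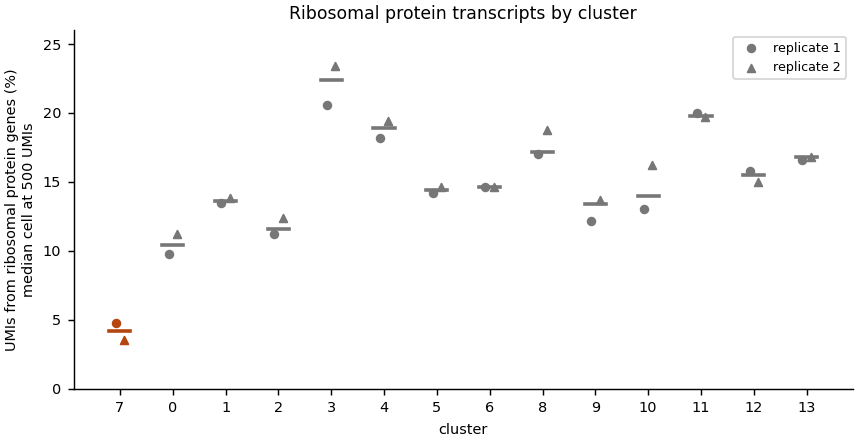
Percent of UMIs from 83 ribosomal protein genes in the median cell of each cluster, all cells thinned to 500 UMIs; horizontal lines are the median over all cells of the cluster, circles replicate 1 and triangles replicate 2. Cluster 7, at the left, is at 4.2%, and the next lowest, cluster 0, is at 10.4%.

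Cluster 5 is the cluster whose leading transcripts are those of monocytes. Against it, 312 of 3214 measured genes (9.71%) were higher and 342 (10.6%) were lower in cluster 7. Under TMM scaling, which moved the median gene by -0.16, the split was 255 higher and 466 lower. Without the C1q cells, 431 (13.3%) were higher and 646 (19.9%) lower. The genes furthest above cluster 5 were the identity genes again, S100a9 (8221 and 22385 CPM in replicates 1 and 2 of cluster 7, against 16.7 CPM in cluster 5) first, then S100a8, G0s2, Retnlg, Hdc, Irg1, Mmp9 and Lcn2. The 5 furthest below were genes of monocytes. Fn1 (fibronectin) was at 9.60 and 0 CPM in replicates 1 and 2 of cluster 7 and 632 CPM in cluster 5. Plac8 was at 72.0 and 190 CPM in cluster 7 and 1751 CPM in cluster 5, the chemokine receptor Ccr2 at 43.2 and 11.2 CPM in cluster 7 and 443 CPM in cluster 5, and S100a4 at 62.4 and 11.2 CPM in cluster 7 and 740 CPM in cluster 5. Without the C1q cells Ccr2 was at 0 in both replicates. Of 7 monocyte markers, 6 were lower than in cluster 5.

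Part of the inflammatory transcripts was not called between the 2 clusters. Il1b was not called between them, at 11162 CPM in cluster 7 and 6212 CPM in cluster 5 (log2 difference 0.85). The matrix protein gene Thbs1 was at 1376 CPM in cluster 7 and 2066 CPM in cluster 5, Cd44 at 1437 CPM in cluster 7 and 898 CPM in cluster 5, and Cd14 at 3974 CPM in cluster 7 and 2351 CPM in cluster 5, none of them called. Without the C1q cells Il1b and Cd44 were called higher, with log2 differences of 1.23 and 1.12. Ccl3 and Cxcl2 did differ, by 3.32 and 2.15 on the log2 scale. Of the neutrophil identity list, 15 of 15 measured were higher than in cluster 5, and of the chemoattractant receptors 6 of 9.

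Against cluster 2, the macrophages with the most Cxcl2 of the other clusters, 381 of 3228 measured genes (11.8%) were higher and 362 (11.2%) were lower. Under TMM scaling the split was 335 higher and 457 lower; without the C1q cells, 517 (15.6%) were higher and 711 (21.4%) lower. Several chemokine and feedback genes were not called: Cxcl2 (log2 difference 0.48), Ccl4 (-0.03), Ier3 (-0.20), Nfkbiz (0.19), Tnfaip3 (0.46) and Cd14 (-0.23). Interleukin 1 genes differed, with Il1b at 11162 CPM in cluster 7 and 1393 CPM in cluster 2 (3.07) and Il1r2 at 1302 CPM in cluster 7 and 8.07 CPM in cluster 2 (6.17). Thbs1 was at 1498 and 1253 CPM in replicates 1 and 2 of cluster 7 and 15.9 CPM in cluster 2. The 5 genes furthest below cluster 2 were Rgl1, Mt1 (metallothionein 1), Rcan1, Cbr2 and Sdc4, and Mt1 was at 432 and 157 CPM in replicates 1 and 2 of cluster 7 and 2293 CPM in cluster 2. Without the C1q cells Mt1 was at 119 and 34.8 CPM, and Sdc4 and Rgl1 were at 0. All of these comparisons share the cells of cluster 7.

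Shares of cells with a UMI were read at 500 UMIs per cell, since the median cell held 1601 UMIs in cluster 7, 7339 in the dendritic clusters 4, 11 and 12, and 4602.5 in the macrophage clusters. In cluster 7, 63.2% of cells had S100a9 (79 of 125, exact 95% interval from 54.1% to 71.6%), against 0.383% of 1566 macrophage cells and 0 of 367 dendritic cells (exact upper limit 1.00%). S100a8 was seen in 59.2% (50.1% to 67.9%), Csf3r in 36.0% (27.6% to 45.1%) and Cxcr2 in 9.6% (5.06% to 16.2%), each at 0% in dendritic cells. The replicates differed for Cxcr2, which was seen in 4.71% of cells in replicate 1 and 20% in replicate 2. Cxcl2 reached 95.2% of the cells of cluster 7, 76.7% of macrophage and 20.4% of dendritic cells, and 96.0% of cluster 2. Il1b reached 88.0% of cluster 7, 25.7% of macrophage and 64.0% of dendritic cells. Cxcl2 was therefore seen in nearly every cell of the cluster, and the calprotectin genes were not. C1qa was seen in 25.6% of cells, against 19.1% of dendritic and 91.1% of macrophage cells. Dendritic cluster 4 had 1087 CPM of C1qa, so the dendritic share is not used as a background for this gene. The shares also do not show how the UMIs were spread over cells. In cluster 7, the 25 of 125 cells with 5 or more C1q UMIs held 578 C1qa UMIs, and the rest held 25.

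Calprotectin UMIs differed widely between the cells of the cluster. Among the 100 cells with under 5 C1q UMIs, each thinned to 500 UMIs, 40 had 0 or 1 UMI of S100a8 and S100a9, 27 had 2 to 9 and 33 had 10 or more. Their median total UMIs were close, at 1448.5, 1579 and 1306. Without thinning, 17 of the 100 had no UMI of either gene, and 16 of these 17 had UMIs of other neutrophil markers. These ranges are cuts on a score, not types, and the genes below were chosen after their values were seen.

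Genes of granules and of mature neutrophils were highest in the cells with the most calprotectin. Over the low, middle and high range, Mxd1 was at 600, 2222 and 2909 CPM, Slpi at 450, 1259 and 2061 CPM, and Retnlg at 0, 1111 and 2667 CPM. The Retnlg levels rest on few cells. In the middle range 11 of its 15 UMIs lay in 1 cell. In the high range 17 of its 44 UMIs lay in the granule cell of library 2-1, which was kept here. Msrb1 was at 1300, 1704 and 3697 CPM and Lyz2 at 300, 1407 and 2485 CPM. Both replicates had their lowest Mxd1, Slpi and Retnlg level in the low range. Csf3r, at 950, 815 and 1636 CPM, and Hdc, at 1950, 1630 and 2727 CPM, were present over the whole range.

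Several cytokine transcripts ran the other way. Tnf was at 3850, 2296 and 909 CPM over the low, middle and high range, in replicate 1 at 3875, 2333 and 824 CPM and in replicate 2 at 3750, 2222 and 1000 CPM. At 500 UMIs, Tnf was seen in 65.0% of the cells of the low range and 9.09% of those of the high range. Ptgs2 was at 2400, 2519 and 848 CPM, Ccl3 at 10150, 9037 and 4788 CPM, and Cxcl2 at 39400, 37852 and 27455 CPM. Others did not: Cxcl3 was highest in the high range, at 1515 CPM, against 950 CPM in the low range, Il1a was at 750, 815 and 788 CPM, Csf1 at 800, 1333 and 788 CPM, and Il1rn at 2150, 1630 and 1697 CPM. A gene that takes more UMIs leaves fewer to the rest of a cell thinned to a fixed number. The part of this in these values was not tested.

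**Figure D5:**
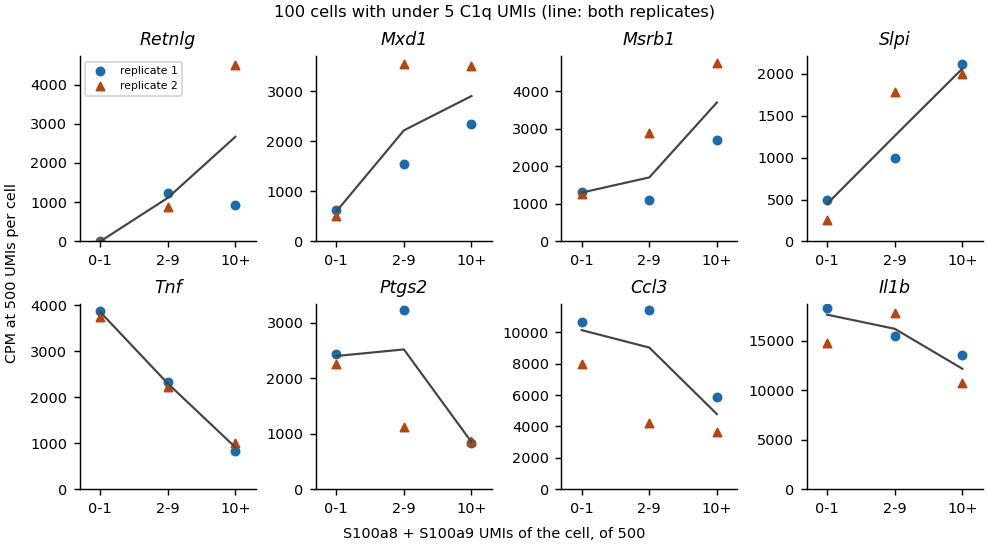
Level of 8 genes (CPM at 500 UMIs per cell, linear axes from 0) in cells of cluster 7 with 0 to 1, 2 to 9 and 10 or more UMIs of S100a8 and S100a9, for the 100 cells with under 5 C1q UMIs; circles are replicate 1, triangles replicate 2 and the line both. Retnlg, Mxd1 and Slpi are lowest at the left and Tnf is highest there, in both replicates. Msrb1 in replicate 1 is lowest in the middle. The granule cell, with much of the Retnlg, is among the cells of replicate 2 at the right.

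Pairs of genes within the 100 cells showed the same 2 directions, given as Spearman's rho over cells of shared libraries, with no test. S100a8 and S100a9 had a rho of 0.84 (0.73 in the 56 cells of library 1-2 and 0.93 in the 20 of library 2-2). S100a9 and Retnlg had 0.50 (0.36 and 0.86 in the same libraries), and S100a9 and Ccl3 had -0.31 (-0.20 and -0.41). Cxcl2 had 0.62 with Nfkbia (0.54 and 0.78) and 0.56 with Il1b (0.54 and 0.76), and Ccl3 with Ccl4 0.62 (0.63 and 0.50).

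Siglecf, a lectin of eosinophils that is also known from long-lived neutrophils of some mouse tissues, had 28 UMIs in cluster 7, at 101 and 78.3 CPM in replicates 1 and 2, against 1.83 CPM in the other clusters (log2 difference 3.07). The eosinophil genes Prg2, Prg3 and Il5ra were at 0 UMIs and Ccr3 at 2 UMIs. Of 9 measured genes linked to Siglecf-bearing neutrophils, 4 were higher (Siglecf, Icam1, Tnf and Vegfa), 1 was lower (Lgals3, at 590.1 CPM in cluster 7 and 2203 CPM in the others) and 4 were not called. Vegfa was at 462, 207, 190 and 277 CPM in cluster 7, against 68.2 CPM, but at 436 CPM in cluster 5. The checkpoint ligand Cd274 was at 125 and 123 CPM in replicates 1 and 2 of cluster 7 and 46.2 CPM in the others (1.26). Its level in cluster 12 was above that of cluster 7, at 414 CPM. Cd24a, a surface marker of neutrophils and of other leukocytes, was at 745, 467, 474 and 502 CPM, against 50.7 CPM (3.09 ± 0.13). A single cell of library 1-2 carried nearly all haemoglobin of the cluster, 2079 of 2085 Hbb-bs UMIs among them; it held 9095 UMIs, 121 of them C1q UMIs, and the split of reads between the near-identical haemoglobin copies is uncertain.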

How the data were processed

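Cells were captured with the GemCode droplet system in 4 libraries of 2 biological replicates. Per the submitters' processing notes, Cell Ranger 3.0.2 and Seurat 3.1.1 were used, with the mm10 build. The authors deposited raw UMI counts per gene and cell for the clusters they kept. The authors also deposited natural log values, which equalled ln(1 + 10000 × count / total) within 1e-09 and were otherwise not used. The deposited metadata give each cell's cluster, total counts and mitochondrial percent. No column of per-sample values was left unused.

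Counts were summed per cluster and replicate (Python 3.11.15, numpy 2.4.6, pandas 2.3.3) and scaled to CPM; 10 CPM were added before log2, which understates differences of low genes. The SD beside a log2 difference is over the 2 replicates. Exact binomial intervals came from scipy 1.17.1, and TMM factors from edgeR 4.0.16 in R 4.3.3. For shares, cells were thinned to 500 UMIs (seed 7). Because the clusters were drawn from these counts, no p-value was computed. Libraries may be technical, since animals are not named for them. Per-library depth was 1698585 to 5954716 UMIs, and a count of 0 in cluster 7 allows 3 counts, or 10.1 CPM.

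Named genes were the markers, the 20 highest and 10 lowest against the other clusters (at least 200 CPM), the 8 highest and 5 lowest against clusters 5 and 2, and up to 6 per list. Members, lists and rules were chosen with earlier results of these data known. Positions are from GENCODE M21 (GRCm38).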

Additional observations from a re-analysis of the deposited data

Results flagged for a closer look

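Over the 4 libraries of cluster 7, 66 values were examined for a library far from the other 3 (Dixon's gap over range). Chance passes the limit in about 1 of 20 groups of continuous values. A value with the other libraries at 0 passes by construction, at a gap over range of 1.0, so this rate does not hold here. In all, 11 values passed the limit, each through its highest library. Library 2-1 accounted for 5 of them. Its secondary granule genes held 1.26% of UMIs, its ageing list 0.288%, Retnlg 5941 CPM, Lcn2 2939 CPM and Retnla 63.2 CPM, and the cell with nearly all Ngp UMIs was in this library.

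Library 1-2, which has the most cells, accounted for 5. Its primary granule genes held 0.00118% of UMIs, and its levels were 11.8 CPM for Fn1, 5.91 CPM for Lyz1, 29.5 CPM for Ms4a4c and 88.6 CPM for Rgl1, while the other libraries were at 0 for each. Library 2-2 accounted for 1, Ccr7, at 52.0 CPM with the other libraries at 0. The values of libraries 1-2 and 2-2 rest on 15 UMIs or fewer each, and Retnla in library 2-1 on 2 UMIs.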

How the results depend on the processing

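The lower calls depended most on the settings. Against the other clusters they numbered 617 with a minimum of 20 CPM, 831 with none, 616 with cells thinned to 500 UMIs and 743 without the C1q cells. Against cluster 5 they numbered 564 with no minimum, 553 thinned and 646 without the C1q cells, and against cluster 2, 545, 649, 649 and 711 under the 4 settings in the order first given. A pseudocount of 50 CPM left 227 higher and 201 lower against the other clusters, 156 and 169 against cluster 5, and 233 and 156 against cluster 2. Leaving out 1 library at a time gave 372 to 418 higher and 340 to 502 lower against the other clusters, 295 to 350 and 296 to 450 against cluster 5, 354 to 428 and 286 to 519 against cluster 2, and a share of cluster 7 of 3.396% to 4.585%.

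Unthinned, S100a8 was seen in 74.4%, Csf3r in 72.8% and Cxcr2 in 34.4% of cells; at 1000 UMIs Csf3r was seen in 50.86%. Thinned to 500 UMIs, list shares of UMIs were 0.3224% (gelatinase granule), 0.3604% (adhesion), 4.636% (chemokine ligands), 2.317% (interleukin 1 and TNF), 0.5784% (interferon), 1.206% (survival), 1.512% (pattern recognition), 0.4085% (hypoxia), 0.3696% (leukotriene), 3.949% (actin), 1.568% (stress), 2.898% (nuclear RNA), 0.1031% (checkpoint), 0.6749% (MHC class II), 0.8225% (C1q and macrophage) and 4.776% (ribosomal). Ptgs1 differed by -0.1327 without library 2-2 and 1.751 without library 2-1. Of the named genes called against the other clusters, it alone changed sign under the alternatives run; genes that were not called, such as Jun without the C1q cells, did so too. The causes were not tested. The settings without the C1q cells, the granule cell and the haemoglobin cell were chosen after seeing the data. No paired analysis was possible because no test was run; each difference was taken within a replicate. Depth limits genes near 10.1 CPM.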
